A study of Drosophila melanogaster with 12 samples.

Results

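The transcripts described here encode the enzymes of glycolysis from phosphoglucose isomerase to pyruvate kinase, together with lactate dehydrogenase. There are 10 such genes among the 14210 genes measured, chosen by name as the main fly gene of each step. In pathway order they are Pgi, Pfk, Ald, Tpi, Gapdh1, Pgk, Pglym78, Eno, PyK and ImpL3, and all 10 were found in the tables. ImpL3, the fly lactate dehydrogenase, is named Ldh in the release 6 annotation.

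Glycolysis splits a glucose molecule into pyruvate and yields ATP and NADH on the way. Lactate dehydrogenase reduces pyruvate to lactate and turns the NADH back into NAD+, which lets the pathway run when pyruvate is not passed to the mitochondria. In fly larvae this route is used in growing tissue, and the oestrogen-related receptor ERR is known to raise the transcription of glycolytic genes in the larva.

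The study asked what the loss of barc does to the transcriptome of neural stem cells and of S2 cells. Its product, barricade, is related to human Tat-SF1, a protein known from splicing and from transcript elongation. Polyadenylated RNA was sequenced in 12 libraries of 4 groups. The first group was type I neuroblasts, the neural stem cells of the larval brain, with barc RNAi (2 libraries), from flies carrying dicer2, asense-Gal4 and UAS-CD8::GFP crossed to the barc RNAi stock VDRC TID 107013. The second was control neuroblasts (2 libraries), with the same dicer2, asense-Gal4 and UAS-CD8::GFP crossed to a stock, VIE-260B (VDRC TID 60100), whose landing site is empty. Larvae of both crosses were reared at 29 °C, and neuroblasts were sorted by fluorescence from brains late in the third instar, so that the driver, dicer2 and the GFP were shared by both groups and RNAi acted where asense-Gal4 was active. The third group was S2 cells, a cell line of embryonic and blood-cell-like origin, given double-stranded RNA (dsRNA) against barc for 7 days (4 libraries). The fourth was S2 cells given dsRNA against mCherry, a sequence flies lack, for 7 days (4 libraries). S2 cells of both groups grew in Schneider's medium with 10% heat-inactivated serum.

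The depleted transcript itself was measured first, in FPKM, the number of fragments per kilobase of transcript length in each 1000000 that mapped. In neuroblasts barc was at 15.1 and 17.9 FPKM with barc RNAi, against 86.4 and 94.0 FPKM in control neuroblasts, so that it fell by 2.39 on the log2 scale (SE 0.084, limma adjusted p = 5.89e-07). In S2 cells it was at 7.32, 4.27, 3.02 and 3.22 FPKM with barc dsRNA, against 21.1, 23.9, 20.9 and 22.3 FPKM with mCherry dsRNA, so that it fell by 2.14 (SE 0.22, limma adjusted p = 0.000665). The depletion did not differ detectably between the systems (difference in log2 fold change -0.25, SE 0.34, limma adjusted p = 0.721). Fold changes are differences of log2(FPKM + 1) between barc-depleted and control libraries, so the change of a gene with few FPKM is understated, and a gene was called at an adjusted p under 0.05. The labels do not say that replicates were separate cultures or cohorts of larvae, so the p-values rest on differences among the libraries at hand, and those may be technical.

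The confidence intervals in the tables imply between 14.6 and 48.7 M fragments (M stands for 1000000) per library, with both barc RNAi neuroblast libraries (48.7 and 42.0 M) deeper than both controls (30.4 and 27.1 M). The 10 genes were well covered, with between 179 and 42120 implied fragments per gene and library, the fewest for ImpL3 in control neuroblasts. The 7 neuroblast markers examined summed to 1541 to 1554 FPKM in barc RNAi neuroblasts and 1650 to 1688 FPKM in control neuroblasts, and the S2 cells carried the 8 hemocyte markers at 521 to 567 FPKM with barc dsRNA and 363 to 497 FPKM with mCherry dsRNA. The kits differed between the systems, with neuroblast libraries prepared by hand and S2 libraries by a robot, and levels in neuroblasts were not tested against levels in S2 cells.

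The 10 genes ranked between 117 and 5890 by FPKM among the genes of a library, and the lowest rank was that of ImpL3 in control neuroblasts. Eno, which encodes enolase, had the highest FPKM of the 10 genes in all 4 groups, at 444 ± 5.59 in barc RNAi neuroblasts, 332 ± 22.9 in control neuroblasts (SD, n = 2 each), 378 ± 65.3 in S2 cells with barc dsRNA and 797 ± 95.3 in S2 cells with mCherry dsRNA (SD, n = 4 each). Pfk had the lowest FPKM of the 10 in 3 groups, and ImpL3 the lowest in control neuroblasts. S2 cells with mCherry dsRNA had the highest mean of the 4 groups for 8 of the 10 genes, and barc RNAi neuroblasts for the other 2, Pglym78 and PyK. Control neuroblasts had the lowest mean for 7 genes and S2 cells with barc dsRNA for Pfk, Ald and Pglym78.

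**Figure D1:**
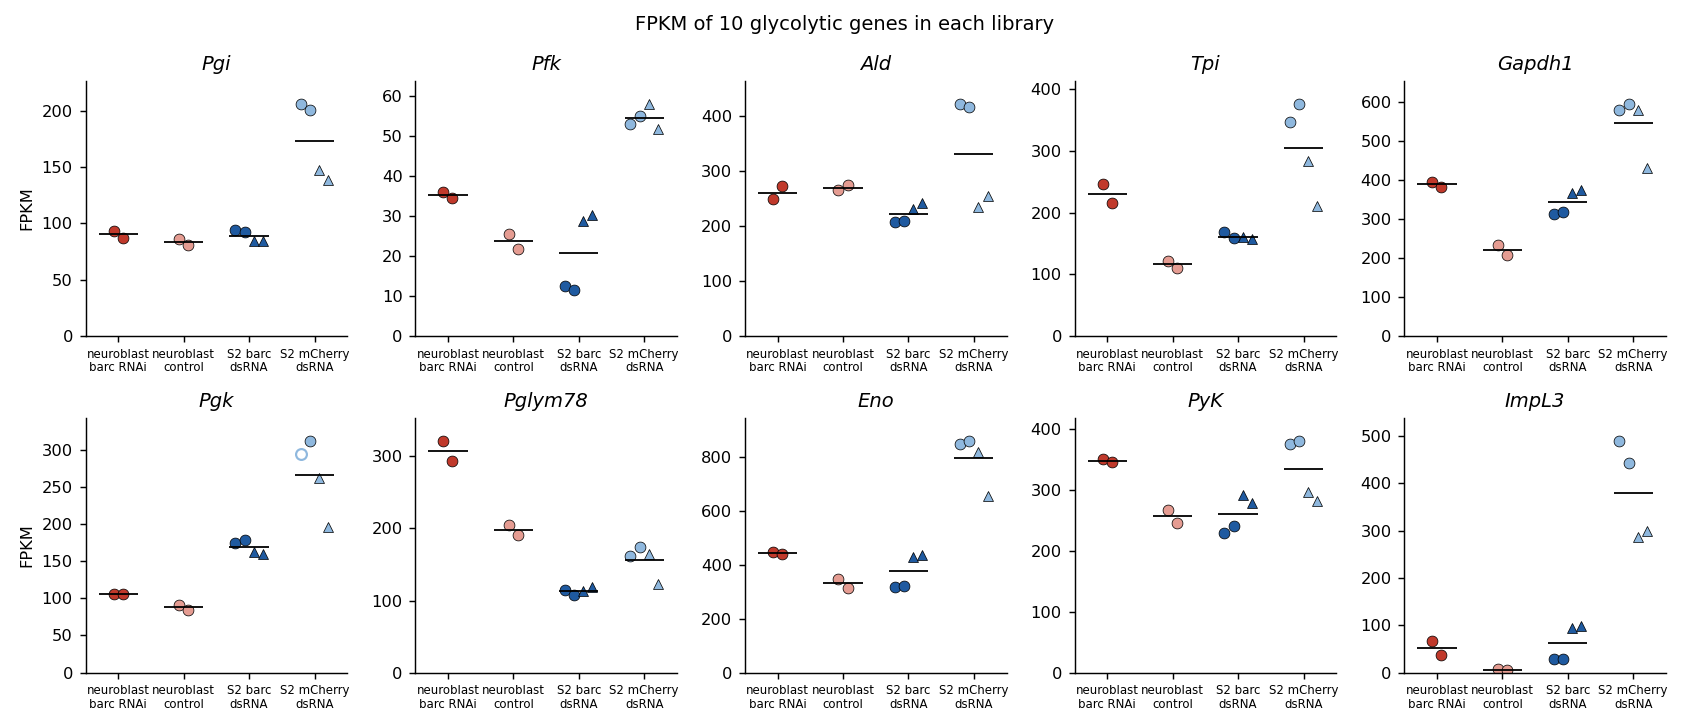
FPKM of each of the 10 genes in each library (y axis, linear from 0) for barc RNAi neuroblasts, control neuroblasts, S2 cells with barc dsRNA and S2 cells with mCherry dsRNA. Points are libraries, triangles are S2 replicates 3 and 4, bars are group means, and the open Pgk point is an estimate the authors' table marks as failed; the ImpL3 points of control neuroblasts lie at 7.90 and 4.77 FPKM, below all other groups.

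As a ratio of the highest to the lowest library, ImpL3 ranged more widely than any of the other 9 genes. Its mean FPKM was 52.0 ± 20.4 in barc RNAi neuroblasts, 6.33 ± 2.21 in control neuroblasts (SD, n = 2 each), 62.5 ± 38.8 in S2 cells with barc dsRNA and 380 ± 102 in S2 cells with mCherry dsRNA (SD, n = 4 each). The order of the levels was S2 cells with mCherry dsRNA, S2 cells with barc dsRNA, barc RNAi neuroblasts and control neuroblasts, from high to low. The libraries of the 2 middle groups overlapped, and those of the others did not. ImpL3 was the third of the 10 genes in S2 cells with mCherry dsRNA, after Eno and Gapdh1.

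In neuroblasts barc RNAi raised 8 of the 10 glycolytic transcripts, and the limma test called none lower, at an adjusted p or at an unadjusted p under 0.05 (0 genes). The members' median log2 fold change was 0.50, beside -0.015 over all 6732 genes tested. In the same comparison 19.1% of all genes were called higher and 23.8% lower. With FPKM rescaled to TPM it was 30.7% higher and 15.5% lower, with 9 of the 10 members higher. Every barc RNAi library exceeded every control library for 9 of the 10 genes, which held for 34.8% of all genes tested. The sorted neuroblasts are bulk samples, in which fewer cells of a type and less RNA per cell cannot be told apart.

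The largest change was in lactate dehydrogenase. ImpL3 was at 66.5 and 37.5 FPKM in barc RNAi neuroblasts, against 7.90 and 4.77 FPKM in control neuroblasts. Both barc RNAi libraries were high and the groups were far apart, although the libraries within each group also differed. The log2 fold change was 2.83 (SE 0.25, limma adjusted p = 7.91e-05), the 24th largest in absolute size of the 6732 genes. In rank among the genes of a library, ImpL3 stood at 1517 and 2535 in barc RNAi neuroblasts and at 5386 and 5890 in control neuroblasts.

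Among the enzymes before the energy-yielding steps, the response was uneven. Pgi, the isomerase that turns glucose phosphate into fructose phosphate, was at 93.7 and 86.8 FPKM in barc RNAi neuroblasts, against 86.3 and 80.5 FPKM in control neuroblasts. It did not pass the test (log2 fold change 0.11, SE 0.061, limma adjusted p = 0.169). Pfk, the phosphofructokinase that commits sugar to glycolysis, was at 36.1 and 34.5 FPKM with barc RNAi, against 25.6 and 21.8 FPKM in controls. It rose by 0.56 on the log2 scale (SE 0.079, limma adjusted p = 0.000779). Ald, the aldolase that splits fructose bisphosphate into trioses, was at 249 and 272 FPKM with barc RNAi, against 266 and 274 FPKM in controls. The Ald libraries of the groups overlapped, and the log2 fold change was -0.05 (SE 0.056, limma adjusted p = 0.502). Tpi, which interconverts the triose phosphates, was at 246 and 216 FPKM with barc RNAi, against 121 and 110 FPKM in controls. After ImpL3 it had the largest change of the 10 genes, at 0.99 (SE 0.073, limma adjusted p = 2.92e-05).

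All 5 enzymes of the energy-yielding stretch from triose phosphate to pyruvate were called higher in barc RNAi neuroblasts. Gapdh1, the dehydrogenase that produces NADH, was at 395 and 382 FPKM with barc RNAi, against 232 and 208 FPKM in control neuroblasts. Its log2 fold change was 0.82 (SE 0.061, limma adjusted p = 2.92e-05). Pglym78, the mutase that moves the phosphate of phosphoglycerate, was at 321 and 293 FPKM with barc RNAi, against 205 and 191 FPKM in controls. It rose by 0.63 (SE 0.062, limma adjusted p = 0.000128). PyK, the pyruvate kinase that makes ATP and pyruvate, was at 349.8 and 345 FPKM with barc RNAi, against 267 and 245 FPKM in controls. Its libraries lay close together within each group, and it rose by 0.44 (SE 0.055, limma adjusted p = 0.000443). Eno, which makes the phosphoenolpyruvate that PyK uses, was at 448 and 439.9 FPKM with barc RNAi, against 348 and 316 FPKM in controls. It rose by 0.42 (SE 0.058, limma adjusted p = 0.000696). Pgk, the kinase that makes ATP after the Gapdh1 step, was at 106 and 105 FPKM with barc RNAi, against 91.6 and 84.2 FPKM in controls. Its change of 0.26 (SE 0.057, limma adjusted p = 0.0066) was the smallest of those called, and without control replicate 2 its adjusted p was 0.051.

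The authors' deposited table for neuroblasts, made from counts, also had 8 of the 10 genes higher and none lower at an adjusted p under 0.05. Of its 11035 genes 28.1% were called in either direction, 1608 higher and 1493 lower. Limma called 1283 higher and 1605 lower of 6732 genes averaging at least 1 FPKM. Without that filter it called 1063 higher and 1325 lower of 10911 genes. As deposited, the authors' table gives control over barc RNAi, and its signs are turned here. In the authors' deposited table ImpL3 had mean normalised counts of 2328 in barc RNAi neuroblasts and 298 in control neuroblasts, a log2 ratio of 2.97. When neuroblasts were fitted together with the S2 libraries, with 1 estimate of the spread for all 4 groups, 3 of the 9 members in that fit were called higher, ImpL3, Tpi and Gapdh1, beside 1.29% of all genes.

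Markers of other cell types moved with the neuroblast comparison. The 7 neuron markers summed to 41.8 to 42.0 FPKM in barc RNAi neuroblasts and 30.9 to 32.5 FPKM in control neuroblasts, and both that were tested, elav and fne, were called higher, while n-syb, Syt1, brp, Syn and nwk averaged under 1 FPKM. The 7 glia markers summed to 121 to 135 FPKM in barc RNAi neuroblasts and 199 to 204 FPKM in control neuroblasts, with both tested, Eaat1 and nrv2, called lower, while the glial markers repo, moody, alrm, wrapper and gcm averaged under 1 FPKM. The 8 hemocyte markers summed to 37.5 to 39.6 FPKM with barc RNAi and 43.4 to 44.3 FPKM in controls, with 2 of 3 tested called lower and Hml, He and srp near 0. The 7 neuroblast markers were all tested, and dpn (-0.37) and insc (-0.27) were called lower. The part of these shifts in the glycolytic changes was not tested.

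In S2 cells, of the 9 members that could be tested, 7 were called lower with barc dsRNA by limma, and 0 were called higher at an adjusted or an unadjusted p under 0.05, where 15.2% of all 7603 genes were called lower and 11.5% higher. The members' median log2 fold change was -0.88, beside -0.062 over all genes. Every barc dsRNA library was below every mCherry library for 7 of the 9 genes tested, which held for 18.0% of all genes. Pgk was left out of the fit because the authors' table marks its estimate in mCherry replicate 1 as failed. The authors' deposited table for S2 cells likewise had 7 of the 10 genes lower and none higher at an adjusted p under 0.05, though there Pgk was called and Pglym78 was not. Of its 12275 genes 16.7% were called in either direction, 675 lower and 1379 higher. The balance was the other way in the limma fit, which left out genes averaging under 1 FPKM, with 1154 lower and 876 higher. Without that filter limma called 1016 lower and 1088 higher of 12201 genes. Of the 8 hemocyte markers, He was called higher with barc dsRNA (1.70), and of the 2 neuroblast markers tested insc was called higher (2.89), with ase, wor and dpn near 0. The 7 muscle markers summed to 3.20 to 4.77 FPKM with barc dsRNA and 1.02 to 2.79 FPKM with mCherry dsRNA, and the 1 tested, Mlc2, was called higher (0.74). The part of these markers in the result was not tested.

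ImpL3 again changed most. It was at 28.3, 29.6, 93.7 and 98.3 FPKM with barc dsRNA, against 489, 443, 287 and 299.8 FPKM with mCherry dsRNA. The highest barc dsRNA library was well below the lowest mCherry library, and replicates 1 and 2 differed from replicates 3 and 4 in both groups. The log2 fold change was -2.78 (SE 0.44, limma adjusted p = 0.00385), the 31st largest in absolute size of 7603 genes.

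Pfk had the second largest change, with 12.4, 11.4, 28.8 and 30.2 FPKM with barc dsRNA, against 53.2, 55.0, 58.1 and 51.9 FPKM with mCherry dsRNA. The mCherry libraries lay close together while the barc dsRNA libraries fell in pairs, and Pfk fell by 1.48 on the log2 scale (SE 0.31, limma adjusted p = 0.0104). Pgi was at 94.5, 92.5, 84.5 and 84.1 FPKM with barc dsRNA, against 206, 200.5, 147 and 139 FPKM with mCherry dsRNA. Here the barc dsRNA libraries were the ones close together, and Pgi fell by 0.93 (SE 0.15, limma adjusted p = 0.004). Tpi was at 169, 159, 159.9 and 157 FPKM with barc dsRNA, against 346, 376, 284 and 211 FPKM with mCherry dsRNA. The mCherry libraries of Tpi were the more spread, and it fell by 0.88 (SE 0.17, limma adjusted p = 0.00895). Ald was at 206, 208, 229.9 and 241 FPKM with barc dsRNA, against 421, 415, 234 and 253 FPKM with mCherry dsRNA. Its groups overlapped because mCherry replicate 3 lay below barc dsRNA replicate 4, and it was not called (log2 fold change -0.53, SE 0.21, limma adjusted p = 0.0891). Without mCherry replicate 3 the adjusted p of Ald was 0.0495, and with the first number of the sample descriptions, 1 for replicates 1 and 2 and 2 for replicates 3 and 4, as a block it was 0.041.

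Of the later enzymes, Eno changed most. Eno was at 319.7, 323.5, 431 and 438 FPKM with barc dsRNA, against 851, 861, 818 and 656.5 FPKM with mCherry dsRNA. No libraries overlapped, and it fell by 1.08 (SE 0.15, limma adjusted p = 0.00259). Gapdh1 was at 313, 318, 367 and 375 FPKM with barc dsRNA, against 579.7, 594, 579.8 and 430.5 FPKM with mCherry dsRNA. It fell by 0.66 (SE 0.14, limma adjusted p = 0.0105), with mCherry replicate 4 below the other mCherry libraries. Pglym78 was at 114, 107.5, 113 and 119 FPKM with barc dsRNA, against 162, 174, 164 and 123 FPKM with mCherry dsRNA. The groups of Pglym78 were separated by a small gap, and its fall of 0.44 (SE 0.13, limma adjusted p = 0.0314) was the least firm: without any 1 of mCherry replicates 1, 2 and 3 or barc dsRNA replicates 1, 2 and 3 the adjusted p lay between 0.0528 and 0.0888. PyK was at 229, 241, 291 and 277 FPKM with barc dsRNA, against 375, 379.7, 296 and 282 FPKM with mCherry dsRNA. The PyK groups overlapped in replicates 3 and 4, and it was not called (log2 fold change -0.35, SE 0.14, limma adjusted p = 0.0936), although without mCherry replicate 4 the adjusted p was 0.0482. Pgk was at 175, 179, 162 and 159.99 FPKM with barc dsRNA, against 294 (the failed estimate), 312, 262 and 197 FPKM with mCherry dsRNA. Its groups did not overlap, and without mCherry replicate 1, on valid estimates alone, it was not called (log2 fold change -0.58, SE 0.17, limma adjusted p = 0.0522). With the failed estimate kept it was -0.63 (SE 0.15, limma adjusted p = 0.017).

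The difference between the responses of the systems was tested in a single fit over all 4 groups. The neuroblast effect minus the S2 effect was called positive for 7 of the 9 genes tested, and limma gave 0 negative at an adjusted or an unadjusted p under 0.05. In that contrast 3.24% of all 7685 genes were called positive and 2.52% negative, and the members' median difference was 1.48, beside 0.042 over all genes. ImpL3 had the largest difference of the 7685 genes, at 5.61 (SE 0.75, limma adjusted p = 0.00236). The difference was 2.04 for Pfk (SE 0.49, limma adjusted p = 0.0355), 1.87 for Tpi (SE 0.27, limma adjusted p = 0.00364) and 1.5 for Eno (SE 0.23, limma adjusted p = 0.00476). Gapdh1 followed at 1.48 (SE 0.2, limma adjusted p = 0.00255), Pglym78 at 1.08 (SE 0.18, limma adjusted p = 0.00846) and Pgi at 1.05 (SE 0.22, limma adjusted p = 0.0243). For PyK (0.79, SE 0.21, limma adjusted p = 0.0523) and Ald (0.48, SE 0.32, limma adjusted p = 0.408) a difference was not called. Pgk was not called without mCherry replicate 1, on valid estimates alone (0.84, SE 0.23, limma adjusted p = 0.0808), and differed by 0.89 with its failed estimate kept (SE 0.22, limma adjusted p = 0.044). The systems differ in cell type, in how barc was depleted and in library kit, and these cannot be told apart.

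Some of these calls changed when 1 library was left out. Without neuroblast control replicate 2, or without barc RNAi replicate 1, 4 members were called, beside 0.973% and 0.857% of all genes called positive in those fits. ImpL3, Tpi, Gapdh1 and Eno were called with each of the 12 libraries left out in turn. Pgi was not called without any 1 of the 4 neuroblast libraries (adjusted p between 0.0882 and 0.136). Pfk was not called without any 1 of those 4 or of mCherry replicates 1, 2 and 3 (adjusted p between 0.0597 and 0.169). Pglym78 was not called without neuroblast control replicate 2 (adjusted p = 0.0662) or barc RNAi replicate 1 (adjusted p = 0.0711), and PyK was called without mCherry replicate 4 (adjusted p = 0.0206) or barc dsRNA replicate 3 (adjusted p = 0.0433). With the replicate number as a block the number of genes called in this contrast was 722, against 443 without it, and 7 members were called in both.

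**Figure D2:**
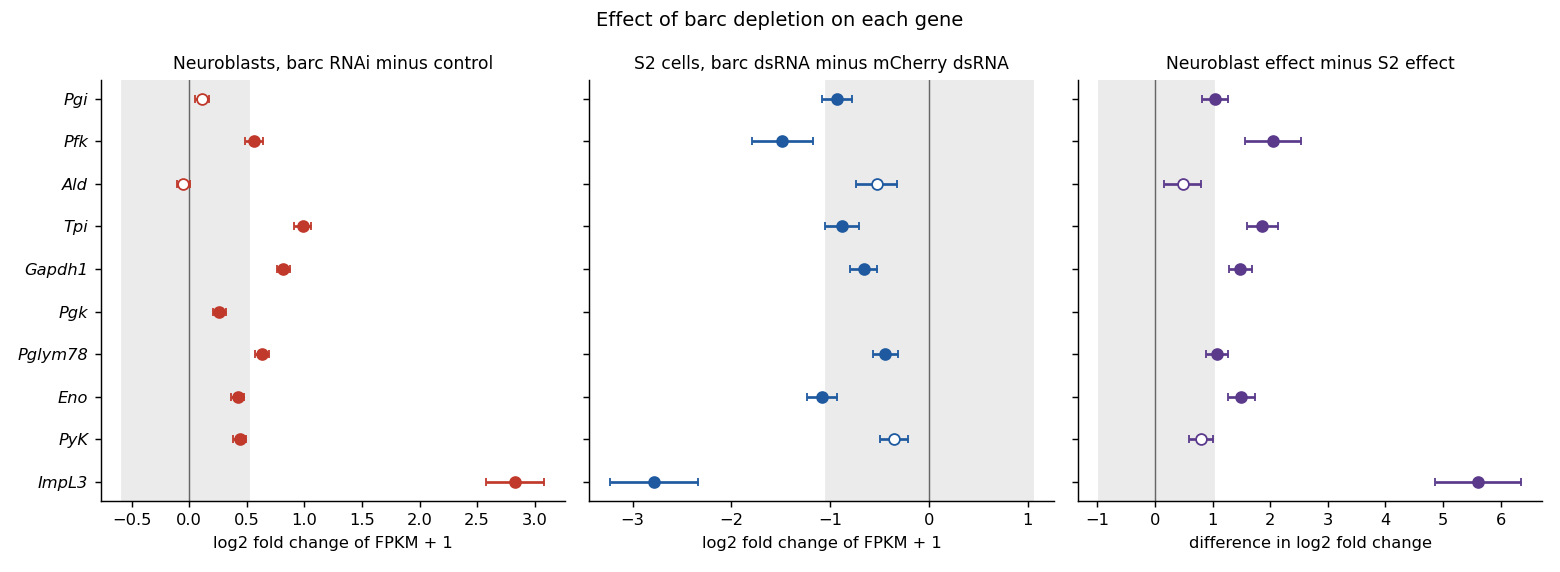
Log2 fold change of FPKM + 1 for each gene in neuroblasts (barc RNAi minus control), in S2 cells (barc dsRNA minus mCherry dsRNA) and as the neuroblast effect minus the S2 effect, on the x axes; bars are SEs, filled points are called, and the grey band spans the 5th to the 95th percentile of all genes tested; Pgk has a point in neuroblasts only. ImpL3 stands at 2.83, -2.78 and 5.61 in the 3 panels, outside each band, and Ald is uncalled in all of them.

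Within S2 cells the size of the effect depended on which replicates were used. The sample descriptions give replicates 1 and 2 of both groups a first number of 1, and replicates 3 and 4 a first number of 2, whose meaning the labels do not state. In replicates 1 and 2 all 9 members tested were called lower, where 45.1% of all genes were. In replicates 3 and 4 it was 4 of 10, ImpL3, Pgi, Pfk and Eno, where 6.2% of all genes were called lower. The effect in replicates 1 and 2 minus that in replicates 3 and 4 was called negative by limma for 5 of 9 members and positive for 0, also at an unadjusted p under 0.05, where 15.9% of all genes were called negative and 6.47% positive. The members' median difference was -0.65, beside -0.168 over all genes.

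ImpL3 had a log2 fold change of -3.96 in replicates 1 and 2 and -1.60 in replicates 3 and 4, a difference of -2.36 (SE 0.13, limma adjusted p = 0.00042). Pfk was at -2.09 in replicates 1 and 2 and -0.88 in replicates 3 and 4, a difference of -1.22 (SE 0.14, limma adjusted p = 0.00173). Ald fell by 1.01 in replicates 1 and 2 and had a log2 fold change of -0.05 in replicates 3 and 4 (limma adjusted p = 0.825), a difference of -0.96 (SE 0.12, limma adjusted p = 0.00239). PyK had the same form, with a fall of 0.68 in replicates 1 and 2, a log2 fold change of -0.03 in replicates 3 and 4 (limma adjusted p = 0.914) and a difference of -0.65 (SE 0.12, limma adjusted p = 0.00955). Control levels of Ald and PyK differed between the pairs as well. With mCherry dsRNA Ald averaged 418 FPKM in replicates 1 and 2 and 244 in replicates 3 and 4, against 207 and 235 with barc dsRNA. Likewise PyK averaged 377 and 289 FPKM with mCherry dsRNA, against 235 and 284 with barc dsRNA. By contrast, Pfk averaged 54.1 and 55.0 FPKM with mCherry dsRNA, against 11.9 and 29.5 with barc dsRNA. Eno fell in both pairs, at -1.41 in replicates 1 and 2 against -0.75 in replicates 3 and 4, a difference of -0.66 (SE 0.16, limma adjusted p = 0.0273). For Pgi, Tpi, Gapdh1 and Pglym78 the difference lay between -0.51 and -0.31 and was not called (limma adjusted p between 0.0665 and 0.292). The fall of barc itself was smaller in replicates 1 and 2 than in replicates 3 and 4, by 0.63 (SE 0.28, limma adjusted p = 0.144). That difference was not called. Eno lost its call without mCherry replicate 1 or 2 or any 1 barc dsRNA library (adjusted p between 0.0789 and 0.114), PyK lost its call without barc dsRNA replicate 1 (adjusted p = 0.0682) or 3 (adjusted p = 0.0643), and without mCherry replicate 3 all 9 members were called and without mCherry replicate 4 it was 7, where 36.1% and 30.2% of all genes were called negative in the same fits.

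**Figure D3:**
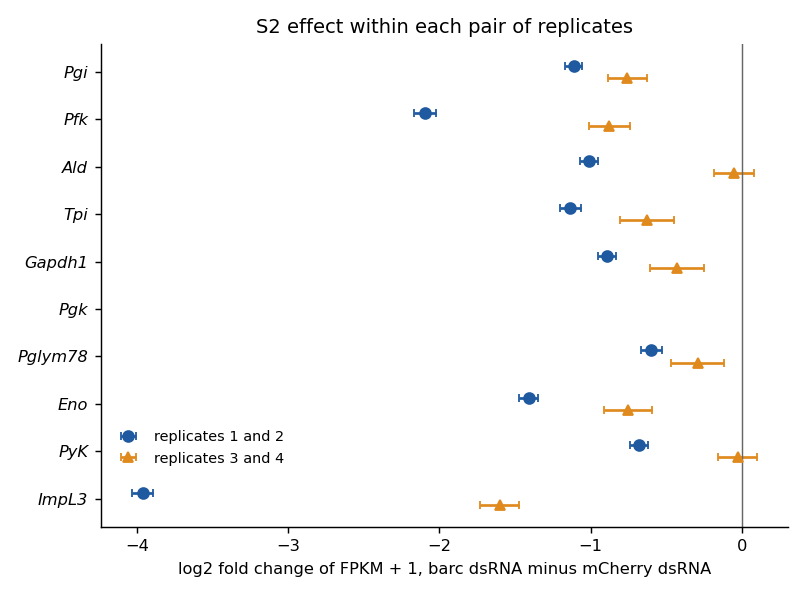
Log2 fold change of FPKM + 1 in S2 cells (barc dsRNA minus mCherry dsRNA, x axis) for each gene, fitted within replicates 1 and 2 (circles) and within replicates 3 and 4 (triangles); bars are SEs, and Pgk, not tested in replicates 1 and 2, has no point. ImpL3 lies at -3.96 and -1.60, while Ald and PyK lie near 0 in replicates 3 and 4, at -0.05 and -0.03.

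As a share of all FPKM in a library, the pathway without ImpL3 moved in the same directions. The 9 other genes held 0.324% and 0.312% of the FPKM sum in barc RNAi neuroblasts, against 0.219% and 0.206% in control neuroblasts. They held 0.256%, 0.255%, 0.253% and 0.269% in S2 cells with barc dsRNA, against 0.475%, 0.447%, 0.347% and 0.333% with mCherry dsRNA. In neither system did the groups overlap. These shares take in the failed Pgk estimate of mCherry replicate 1.

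The ratio of ImpL3 to PyK compares the transcript that uses pyruvate for lactate with the transcript that makes pyruvate, both per length. It was 0.19 and 0.109 in barc RNAi neuroblasts, against 0.0296 and 0.0195 in control neuroblasts. In S2 cells it was 0.123, 0.123, 0.322 and 0.355 with barc dsRNA, against 1.31, 1.17, 0.968 and 1.06 with mCherry dsRNA. With mCherry dsRNA ImpL3 was about level with PyK, and both barc-depleted groups lay between the 2 control groups.

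**Figure D4:**
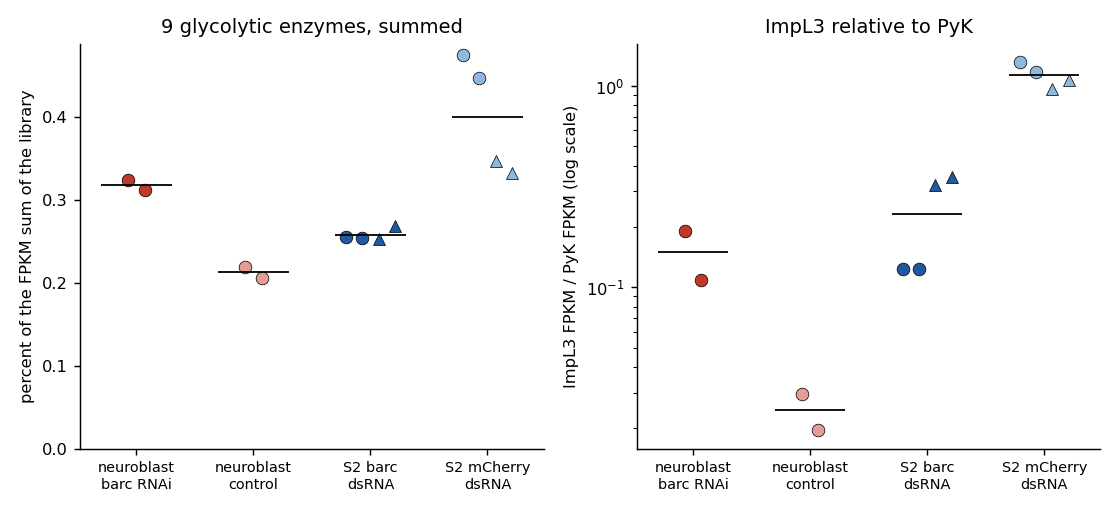
Share of the library's FPKM sum held by the 9 genes other than ImpL3 (percent, left, from 0) and ratio of ImpL3 FPKM to PyK FPKM (right, log scale) in each library of the 4 groups. Points are libraries, triangles are S2 replicates 3 and 4, and bars are means; the barc RNAi neuroblasts lie above their controls in both panels, and the S2 libraries with barc dsRNA lie below theirs.

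The 10 genes have close relatives, most of them under 1 FPKM here. Of 10 paralogs, 2 could be tested in neuroblasts and 3 in S2 cells, and only Gapdh2 was abundant. Gapdh2, the second glyceraldehyde phosphate dehydrogenase, was at 301 ± 29.2 FPKM in barc RNAi neuroblasts and 221 ± 15.9 FPKM in control neuroblasts (SD, n = 2 each), and was called higher by 0.44 (SE 0.076, limma adjusted p = 0.00209). In S2 cells it ranged between 318 and 471 FPKM with barc dsRNA and between 429 and 690.5 FPKM with mCherry dsRNA, and was not called (-0.57 on the log2 scale, SE 0.19, limma adjusted p = 0.0545). Gapdh1 and Gapdh2 are close relatives in sequence, so how the authors' counting split reads between them is uncertain. CG7069 was called lower in S2 cells (-0.67, limma adjusted p = 0.0438), and CG9961, tested in both systems, was called in neither.

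The counts of the related lists that follow stand beside 19.1% of all genes called higher and 23.8% lower in neuroblasts, and 11.5% higher and 15.2% lower in S2 cells. Of 8 tested genes for hexokinase, sugar transport and glycogen, 4 were called higher and 1 lower in barc RNAi neuroblasts, with a median log2 fold change of 0.247. Those higher included the trehalose transporter Tret1-1 (0.65), the glycogen phosphorylase GlyP (0.53) and the hexokinase Hex-A (0.50), while the sugar transporter sut1 was lower (-0.56). In S2 cells 4 of 8 were called lower, with a median of -0.75, among them UGP (-1.32), the glycogen synthase CG6904 (-1.11) and GlyP (-0.91). The neuroblast effect minus the S2 effect was called positive for GlyP (1.45) and CG6904 (1.49).

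Of 8 tested genes for the entry of pyruvate into the mitochondria, 4 were called lower and 1 higher in barc RNAi neuroblasts, with a median of -0.159. Those lower included the pyruvate dehydrogenase subunits CG5261 (-0.79) and l(1)G0334 (-0.70) and the pyruvate carrier CG14290 (-0.48), and the higher gene was CG7430 (0.18). In S2 cells 1 of 8 was called lower, the pyruvate dehydrogenase kinase Pdk (-0.92). The neuroblast effect minus the S2 effect was called for CG5261 (-0.89) and Pdk (1.01).

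The list for the tricarboxylic acid cycle also holds the malic enzyme Men and the NADP-dependent Idh, which are not core steps. Of its 17 tested genes, 6 were called higher and 4 lower in barc RNAi neuroblasts, with a median of -0.052. The share called lower was close to the 23.8% of all genes. The largest changes were those of skap (0.62), Mdh2 (0.45) and Men (0.31) upwards, and of SdhB (-0.43), CG5214 (-0.42) and CG10219 (-0.32) downwards. In S2 cells 7 of 17 were called lower (median -0.352), where 15.2% of all genes were, led by Men (-1.03), CG5214 (-1.02) and SdhA (-0.86). Mdh2 (0.80) and Men (1.34) were called in the neuroblast effect minus the S2 effect.

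In the side branches of glycolysis, Pfrx, whose product makes and breaks an activator of phosphofructokinase, was called higher in barc RNAi neuroblasts (0.56), and the pyruvate carboxylase CG1516 (-0.63) and the glycerol phosphate dehydrogenase Gpdh (-0.39) were called lower. In S2 cells 1 of 6 such genes was called, fbp, the fructose bisphosphatase of gluconeogenesis, at -1.39. Of 6 pentose phosphate genes, Pgd (0.29) was higher and CG8036 (-0.17) lower in neuroblasts, and CG30410 (-1.11) and Pgd (-0.60) were lower in S2 cells.

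**Figure D5:**
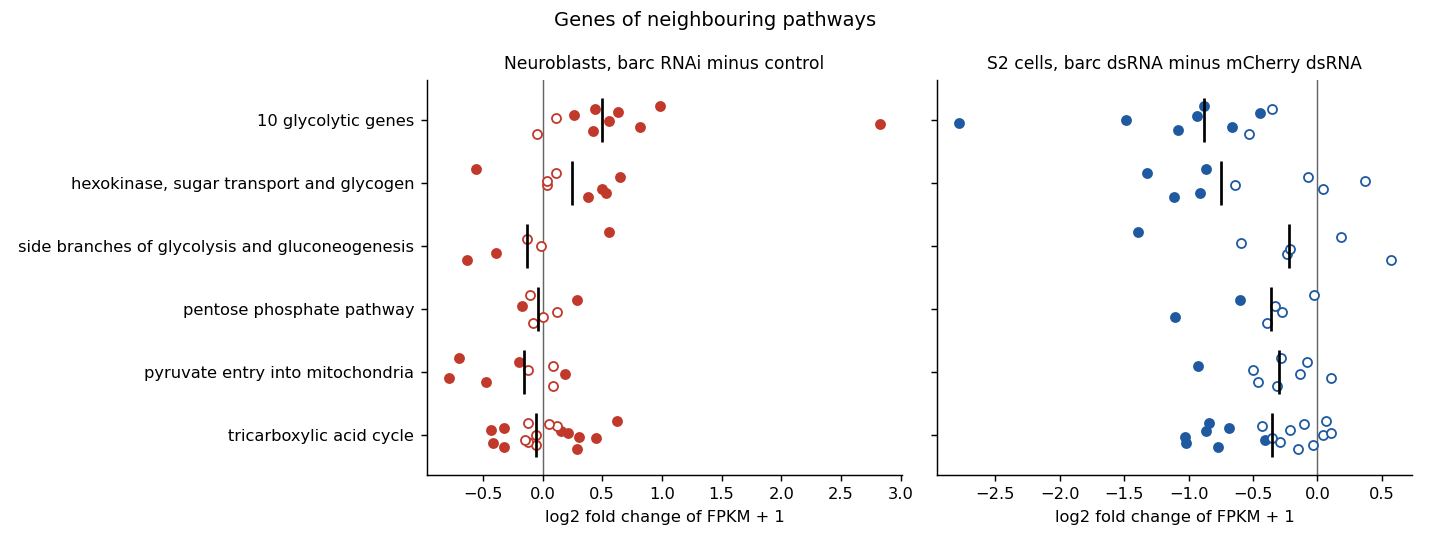
Log2 fold change of FPKM + 1 (x axis) of every tested gene in the glycolytic set and in 5 lists of neighbouring pathways, for neuroblasts (left) and S2 cells (right). Filled points are called and black bars are list medians; the glycolytic genes have the highest median in neuroblasts (0.50) and the lowest in S2 cells (-0.88) of the 6 rows.

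Genes linked to the control of glycolytic genes in flies were examined as a list of 16, and not all of them are known to regulate the pathway directly. In neuroblasts 3 of 14 tested were called higher and 4 lower, shares close to the 19.1% and 23.8% of all genes. The higher genes were scyl (1.32) and chrb (0.23), which restrain TOR signalling and respond to low oxygen, and sima (0.31), the fly hypoxia-inducible factor. Those lower included foxo (-0.71), Vhl (-0.24) and bigmax (-0.19). Of the 16 genes 15 were found, and sug was not tested in neuroblasts. In the authors' deposited table sug was higher in barc RNAi neuroblasts at an adjusted p under 0.05 (log2 ratio 1.775). Its mean normalised counts there were low, at 58.6 with barc RNAi and 17.1 in controls. In S2 cells Mio (0.53) was called higher and Hph (-1.13) and Vhl (-1.0) lower, of 15 tested. ERR was not called in either system, at -0.01 in neuroblasts (SE 0.079, limma adjusted p = 0.934) and -0.10 in S2 cells (SE 0.1, limma adjusted p = 0.49).

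The genes most like ImpL3 were listed by the Pearson correlation of log2(FPKM + 1), as a description. Over all 12 libraries and 7684 genes they were Got1 (0.972), an aspartate aminotransferase, then GlyP (0.966), Dcp-1 (0.964), Gapdh1 (0.962) and Mgat2 (0.954). Of the other members tested with it, Eno was at 0.913, Tpi at 0.866, Pgi at 0.821, Pfk at 0.742, PyK at 0.645, Ald at 0.464 and Pglym78 at -0.182. Over the 8 S2 libraries and 7602 genes the most alike were Prx2540-2 (0.998), CG17278 (0.997), Pep (0.996), CG14273 (0.996) and Best1 (0.994), with Eno (0.98) and Pfk (0.976) the highest members. Libraries of a system share their kit, and libraries of a group their treatment, so these points are few and not independent.

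The genes lie on 4 chromosome arms, and their gene structures range from intronless to intron-rich. In the coordinates of the authors' tables, whose build is older than release 6 and not named in the sources used here, ImpL3 (FBgn0001258) spans 6252592 to 6255793 on arm 3L, Tpi (FBgn0086355) 25958698 to 25960321 on 3R, Pglym78 (FBgn0014869) 24973970 to 24975623 on 3R, Ald (FBgn0000064) 22079791 to 22087313 on 3R and PyK (FBgn0003178) 18193234 to 18198464 on 3R. Eno (FBgn0000579) spans 1724974 to 1729629 and Pgk (FBgn0250906) 2746880 to 2753068 on 2L. Pgi (FBgn0003074) spans 4798407 to 4801631, Pfk (FBgn0003071) 5997245 to 6004962 and Gapdh1 (FBgn0001091) 3679403 to 3680885 on 2R. In the release 6 annotation Gapdh1 has 0 introns, Pglym78 2, Tpi 3, ImpL3 5, Pgi 5, Pgk 6, Eno 7, Ald 10 and Pfk 17 distinct introns. The intronless Gapdh1 and the intron-rich Pfk were called in the same direction within each system, but by different amounts. Gapdh1 changed by 0.82 in neuroblasts and -0.66 in S2 cells, and Pfk by 0.56 and -1.48. Whether intron number bears on the changes was not tested. In the authors' tables Gapdh1 overlaps mus205, Pgk overlaps Cwc25 and CG9894, Pglym78 overlaps ligatin and Eno overlaps Rrp40, and since the strand setting of the counting is not given, reads of overlapping genes cannot be told apart.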

How the data were processed

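RNA was sequenced in 12 strand-specific polyA libraries, grouped by their labels. The authors deposited FPKM per gene for each library, with confidence bounds, also as FPKM, and an estimate status, in the layout of a Cufflinks gene table per the file headers. They also deposited 2 comparison tables holding group mean signal (normalised counts), the ratio of the means as a fold change, its log2 and a p-value with an adjusted p-value. Cufflinks 1.3.0, TopHat 1.4.1, BWA 0.6.1, DESeq and HTSeq are listed, without a role, in the submitters' processing notes of what the authors used, and the build is not given in the sources used here. No column of per-sample values was left unused (0 columns).

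Genes with a mean of at least 1 FPKM over the libraries of a fit and no failed or low-data estimate were tested with limma 3.58.1 (trend) in R 4.3.3 on log2(FPKM + 1), two-sided, with Benjamini-Hochberg adjustment over all genes tested and a threshold of 0.05 (47 genes were left out for their status in neuroblasts and 41 in S2 cells). Neuroblasts and S2 cells were fitted apart. The neuroblast effect minus the S2 effect came from 1 fit of 4 groups, and the difference between S2 replicate pairs from 1 fit of treatment by first number. The fits were tested on simulated data with independent noise and no shift between S2 replicate pairs. That test does not show how the main S2 fit behaves with the replicate structure described below. Implied fragments are (2 FPKM / (upper bound - FPKM)) squared; 92.0% to 92.6% of those under 200, in genes with 1 transcript, lay within 0.02 of a whole number. Such intervals cover counting error only.

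Named genes were the 10 members, all tested paralogs, up to 3 called genes per list and direction, and the 5 genes most like ImpL3. ERR and sug were added after their values were seen. The members and lists were chosen with earlier results of these data known. Same-numbered S2 libraries deviated together from their group means (correlations 0.581, 0.588, 0.588 and 0.451 over genes). Replicates with other numbers of the same first number did so too (0.326 to 0.618). Those of different first numbers deviated in opposite ways (-0.606 to -0.371). Because deviations were taken from each group's own mean, this follows from the shared deviations within a first number and is no separate observation. The main S2 comparison was fitted without a block, so its SEs and p-values do not take this structure into account. Blocks by replicate number and by first number were run as alternatives only. In neuroblasts the correlation was 0.067 and the numbers were not taken to pair libraries. Alternatives were a pseudocount of 0.1, no filter, rescaling to TPM, quantile normalization, blocks, a common fit, leaving out each library, and, chosen after seeing the data, keeping failed estimates.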

Additional observations from a re-analysis of the deposited data

Results flagged for a closer look

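Gapdh1 in mCherry replicate 4 was at 430.5 FPKM, far from the other 3 mCherry libraries for the size of the group's range. Such a flag arises by chance in about 1 in 20 groups, and every member was screened in both S2 groups. The screened sets were not independent. Replicate 4 was also the lowest mCherry library for Pgi, Pfk, Tpi, Pgk, Pglym78, Eno and PyK, though not for Ald and ImpL3.

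The response to barc depletion differed between the systems by the test of the difference itself (neuroblast effect minus S2 effect, log2 scale) for ImpL3 (5.61), Pfk (2.04), Tpi (1.87), Eno (1.5), Gapdh1 (1.48), Pglym78 (1.08) and Pgi (1.05). The S2 response differed between replicates 1 and 2 and replicates 3 and 4, by the same kind of test, for ImpL3 (-2.36), Pfk (-1.22), Ald (-0.96), Eno (-0.66) and PyK (-0.65). The meaning of the number that separates these replicates is not given in the labels.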

How the results depend on the processing

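The neuroblast comparison called 2888 genes and 8 members, and 208 genes and 3 members in 1 fit over all 4 groups, where Pfk, Pglym78, Eno and PyK lost their calls. Ald, uncalled, had a log2 fold change of 0.0495 with TPM, and between -0.1112 and 0.0105 with 1 library left out. S2 cells called 2030 genes and 7 members, with 3496 genes when the first number was a block, 5460 in replicates 1 and 2 alone, and 927 genes and 4 members in replicates 3 and 4 alone. The contrast of the systems called 443 genes, with 692 without a filter. With a replicate block it was 722 genes, and neuroblasts gave 3158, S2 cells 2778 and the S2 replicate pairs 1935 genes; no member's call changed under the block. With 1 library left out, neuroblasts gave 1847 to 2959 genes and 7 to 8 members, S2 cells 1104 to 2513 and 6 to 8, the contrast of the systems 108 to 996 and 4 to 8, and the S2 pairs 648 to 4118 and 3 to 9. TPM made 66.5% of neuroblast calls higher (2067 higher and 1041 lower), against 44.4%, and 53.3% of S2 calls (932 higher and 816 lower), against 43.2%. It moved the S2 median of all genes to 0.055, against -0.062, with the members at -0.755. Quantile normalization made 47.1% of the calls between S2 pairs positive (703 positive and 790 negative), against 28.9%, with the median of all genes at 0, against -0.168. TPM called Pgi higher in neuroblasts (limma adjusted p = 0.0217). In S2 cells Pglym78 lost its call with TPM (limma adjusted p = 0.0898) and quantile normalization (0.0572), and Ald gained one with the first number as a block (0.041) and in the common fit (0.0438), as PyK did there (0.0401). In the contrast of the systems Pgi lost its call with TPM (0.0618) and PyK gained one with quantile normalization (0.0428). Apart from Ald in neuroblasts, no member changed direction under any alternative run. The cause of these shifts was not tested. Leaving out 1 neuroblast library leaves a group of 1, assumed to vary like the others.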
